A study of Mus musculus with 5 samples.

Results

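Elastic fibres and microfibrils are built by a small family of secreted proteins, and 10 of their genes are described here: Eln, Fbn1, Fbln1, Fbln2, Fbln5, Efemp2, Mfap2, Mfap4, Mfap5 and Ltbp2. The genes were named by symbol for what their proteins do, with earlier results of these data already known. Their rows were taken from tables that together list 14161 genes. A gene with no row in a library was taken as 0 counts. Of the 10 genes, 8 were listed in at least 1 library, and Eln and Mfap4 in none. The samples were cultured bone marrow mesenchymal stem cells, the plastic-adherent stromal cells of marrow, from the femurs of C57BL/6 mice. They comprised 3 libraries of Bmal1-knockout cells (Bmal1-/-) and 2 of wild type cells, and both groups shared an age of 6 to 8 weeks, culture in α-MEM with 12% serum and passages 1 to 3. The product of Bmal1, whose gene symbol is Arntl, is CLOCK's partner in the transcription factor that runs the circadian clock. The labels give neither the exons deleted nor whether the libraries came from separate mice or cultures, so the p-values below measure the spread between these libraries, which may be technical.

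An elastic fibre has a core of cross-linked elastin on a scaffold of microfibrils, which are strings of fibrillin. Fibulins bring tropoelastin, the soluble form of elastin, to the scaffold and recruit the lysyl oxidases that cross-link it. Microfibrils also hold latent TGF-beta through binding proteins of the LTBP family. Marrow stromal cells and fibroblasts make microfibrils whether or not they make elastin, whereas the leukocytes of marrow make little of either.

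The libraries were shallow, at 226695 to 281990 expected counts each in the knockout group and 211623 to 243072 in the wild type group. Expected counts are RSEM-type estimates that share out reads fitting several genes. Levels are given as CPM, counts per 1e6 counts of the tested genes after scaling, on which 3 counts, taken as the limit of a 0, correspond to 12.1 to 15.9 CPM in a single library. Arntl was counted 4, 1 and 2 times in knockout 1, 2 and 3 against 5 and 0 times in wild type 1 and 2, so at this depth the deleted gene did not check the labels. All 18 stromal markers examined were listed, and so were all 20 macrophage markers. Summed, the macrophage markers were at 10490 to 11760 CPM in the knockout and 16950 to 17200 CPM in the wild type libraries. The cultures labelled as mesenchymal stem cells therefore also held RNA of macrophage genes. The neutrophil markers Mpo and Elane, the T cell marker Cd3e, the endothelial marker Vwf and the haemoglobin genes were at 0 in every library. Other markers of these lists were counted: Mmp8 of neutrophils 19 times in the knockout and 25 in the wild type group, Cd8a 12 and 10, the cytotoxic granule gene Gzmb 3 and 23, and the endothelial gene Pecam1 41 and 32. In bulk RNA, fewer cells of a type and less RNA per cell cannot be told apart.

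Fbn1 and Ltbp2, the microfibril scaffold and one of its binding proteins, and the fibulin genes Efemp2, Fbln5 and Fbln2 were higher in the knockout cells. Over 15 other settings of the processing, the call was lost in 9 for Ltbp2, 3 for Fbln2 and 1 for Fbln5. The exact count ratios were 5.29 for Efemp2, 5.20 for Fbln5, 3.41 for Fbln2, 2.47 for Fbn1 and 1.91 for Ltbp2. With a wild type library left out, Efemp2 moved to 3.72 or 8.42 and Fbln5 to 4.88 or 5.52, and differences between members were not tested. Fbln1, Mfap2 and Mfap5 were present at a few counts per library with no difference detectable at this depth. Eln, the gene of elastin itself, was not listed in either genotype. Of 3710 genes that passed the filter on low counts, 304 (8.19%) were higher and 302 (8.14%) lower in the knockout at an adjusted p under 0.05 (edgeR's quasi-likelihood test, Benjamini-Hochberg adjustment over all tested genes). In 785 tested genes (21.2%) every knockout library was above both wild type libraries. The 5 members that passed the filter were called higher and had such separate groups. Efemp2, Fbln5 and Fbln2 passed the filter only through their knockout libraries, so this count was in part fixed by the filter. The members were also chosen with earlier results of these data known, so the count is a description only. The other 5 members were too low to be tested across genes.

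Fbn1 (Entrez gene 14118, chromosome 2, 125300594 to 125506485, minus strand, GRCm38.p6) encodes fibrillin-1, the main building block of microfibrils. Its counts were 83, 120 and 101 in knockout 1 to 3 against 39 and 35 in wild type 1 and 2. The mean level was 459 ± 96.4 CPM (SD, n = 3) in the knockout and 185 ± 1.98 CPM (n = 2) in wild type. Knockout 2 was the highest library, and the lowest knockout library was more than double either wild type library. The log2 fold change was 1.31 (SE 0.21, 95% interval 0.90 to 1.72; adjusted p = 1.57e-08), and the exact Poisson interval of the ratio of summed counts, 2.47, ran from 1.91 to 3.24 (such intervals cover counting error only). Of its 12128 exon bases, 2442 lie opposite exons of the gene model Gm9913, which was not listed in any library. The sources used here do not give whether the libraries kept strand; without it, reads from 2 overlapping genes cannot be told apart.

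Ltbp2 (Entrez gene 16997, chromosome 12, 84783212 to 84876558, minus strand) encodes a latent TGF-beta binding protein that associates with fibrillin microfibrils and, unlike its relatives, does not bind latent TGF-beta. It was counted 24, 24 and 44 times in knockout 1 to 3 against 17 and 12 times in wild type. The mean level was 136 ± 36.6 CPM (n = 3) in the knockout and 71.8 ± 11.4 CPM (n = 2) in the wild type. The groups did not overlap, but knockout 3 stood above the other two knockout libraries. The log2 fold change of 0.92 (SE 0.34, 95% interval 0.25 to 1.59) passed the test narrowly (adjusted p = 0.0458). Without knockout 3 it was 0.66 and did not pass (adjusted p = 0.311). It was 1.10 without wild type 1 and 0.78 without wild type 2, each short of the test on 1 remaining wild type library. Of its 8184 exon bases, 764 lie opposite D030025P21Rik, which had 172, 243 and 244 counts in the knockout and 167 in each wild type library, a log2 fold change of 0.25 (adjusted p = 0.217).

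Efemp2 (Entrez gene 58859, chromosome 19, 5473946 to 5482520, plus strand) encodes fibulin-4, which carries lysyl oxidase to tropoelastin and without which elastic fibres do not form. Knockout 1 to 3 held 27, 34 and 18 counts of it, and wild type 1 and 2 held 3 and 6. Mean levels were 121 ± 45.0 CPM (n = 3) against 23.0 ± 12.6 CPM (n = 2). Every knockout library was above both wild type libraries, with knockout 3 the lowest of the 3. The log2 fold change was 2.38 (SE 0.47, 95% interval 1.47 to 3.30; adjusted p = 9.01e-06), and the exact ratio was 5.29 (2.65 to 12.0). Without wild type 1 the log2 fold change was 1.89 and without wild type 2 it was 3.03, and the wild type level rests on 9 counts in all. Exons of Mus81, with at most 3 counts in any library, lie opposite 173 of its bases.

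Fbln5 (Entrez gene 23876, chromosome 12, 101746565 to 101819119, minus strand) encodes fibulin-5, which binds tropoelastin and cell-surface integrins. The 3 knockout libraries held 25, 20 and 24 counts, and each wild type library held 4. Mean levels were 104 ± 13.9 CPM (n = 3) against 20.0 ± 1.74 CPM (n = 2). Each knockout library lay above both wild type libraries. The wild type level rests on 8 counts in all, too few for its SD to measure a spread. The log2 fold change was 2.35 (SE 0.49, 95% interval 1.39 to 3.30, adjusted p = 3.54e-05), with an exact ratio of 5.20 (2.49 to 12.5). With voom, an alternative test, it was 2.24 and did not pass (adjusted p = 0.0806).

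Fbln2 (Entrez gene 14115, chromosome 6, 91212460 to 91272540, plus strand) encodes fibulin-2, which binds fibrillin and is found in elastic fibres and basement membranes. Knockout 1 to 3 held 24, 23 and 21 counts of Fbln2, and wild type 1 and 2 held 10 and 2. Mean levels were 103 ± 16.1 CPM (n = 3) against 28.8 ± 25.7 CPM (n = 2). The knockout libraries lay close together and the 2 wild type libraries far apart, with wild type 1 nearer the knockout. The log2 fold change was 1.76 (SE 0.45, 95% interval 0.89 to 2.64; adjusted p = 0.00122), with an exact ratio of 3.41 (1.83 to 6.93). It was 1.12 without wild type 2, short of the test on 1 remaining wild type library, and 3.20 without wild type 1. The size of the difference thus depended on which wild type library was kept.

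**Figure D1:**
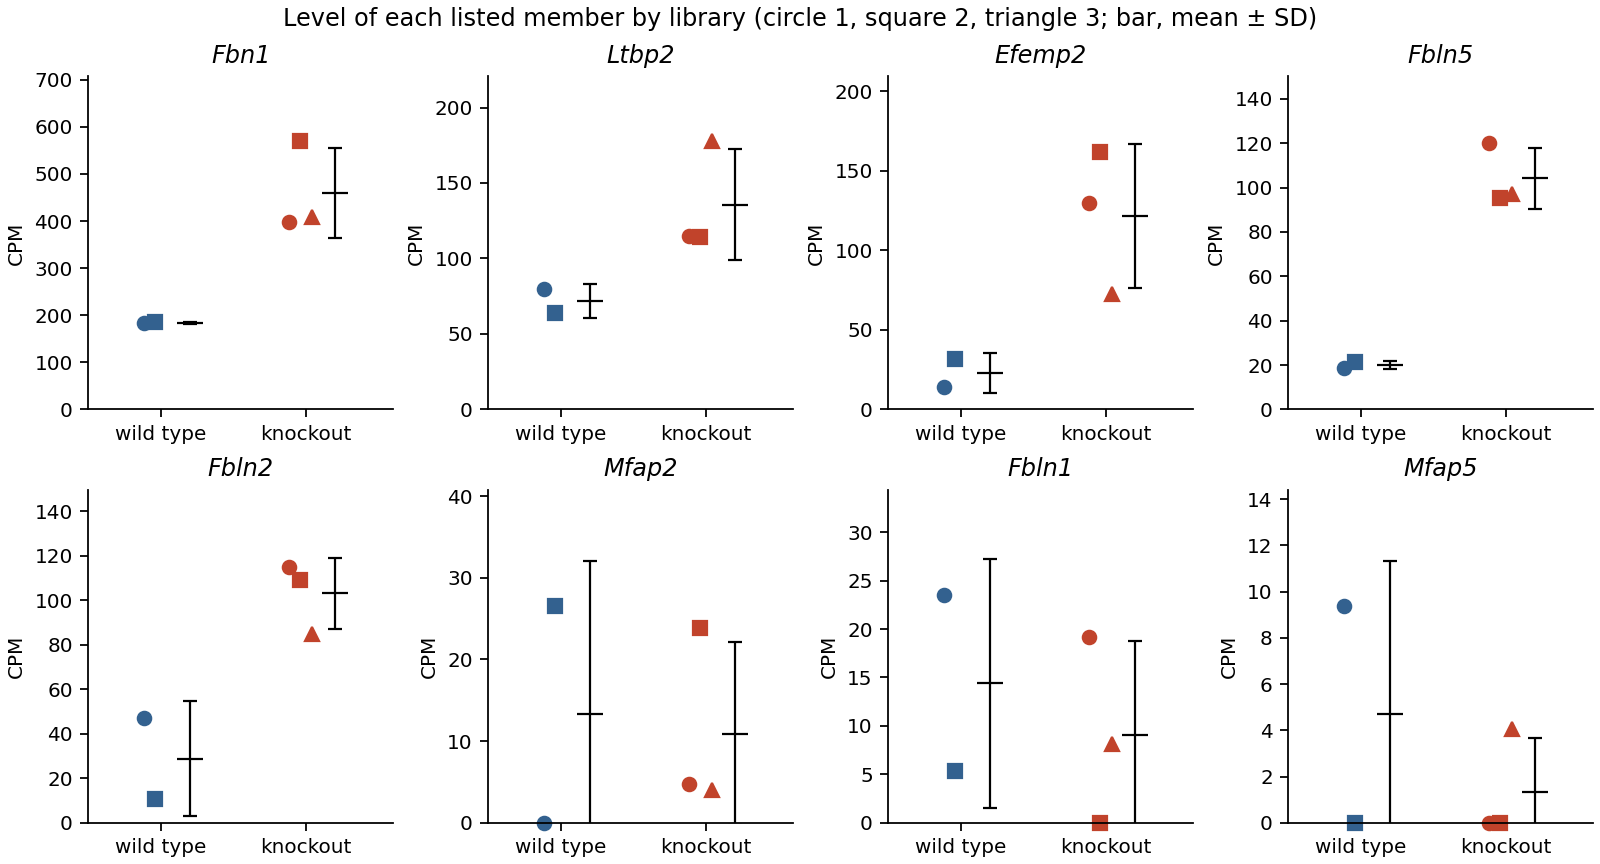
Level of each of the 8 listed members in CPM (vertical axes, linear, starting at 0 and scaled separately) in the 2 wild type (blue) and 3 knockout (red) libraries, with horizontal marks and bars for mean ± SD, cut off at 0 where they would fall below it. Fbn1, Ltbp2, Efemp2, Fbln5 and Fbln2 show every knockout library above both wild type libraries, as in Fbn1 with 459 ± 96.4 against 185 ± 1.98 CPM, whereas Mfap2, Fbln1 and Mfap5 overlap at or near 0.

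The other 3 listed members were near the limit of detection. Fbln1 (Entrez gene 14114, chromosome 15, 85205949 to 85286294, plus strand), which encodes the fibulin-1 of elastic fibres and basement membranes, was counted 4, 0 and 2 times in knockout 1 to 3 against 5 and 1 times in wild type. Mfap2 (Entrez gene 17150, chromosome 4, 141010424 to 141015976, plus strand), which encodes the microfibril glycoprotein MAGP1, had 1, 5 and 1 counts against 0 and 5. Mfap5 (Entrez gene 50530, chromosome 6, 122513584 to 122529290, plus strand), which encodes its relative MAGP2, had 0, 0 and 1 counts against 2 and 0. The libraries of the genotypes were intermixed for all 3 genes. The exact ratios were 0.602 (0.161 to 2.25) for Fbln1, 0.843 (0.230 to 3.37) for Mfap2 and 0.301 (0.00511 to 5.79) for Mfap5. In two-sided exact Poisson tests of these 3 ratios the unadjusted p was 0.386, 0.773 and 0.561, and 0.773 for each after Benjamini-Hochberg adjustment over the 3 tests. The upper bounds for Fbln1 and Mfap2 lie below the ratios of Efemp2 and Fbln5, and the interval of Mfap5 includes both. The bound of Mfap2 lies within the intervals of Efemp2 (2.65 to 12.0) and Fbln5 (2.49 to 12.5). Without wild type 1 the bound of Fbln1 was 78.0, and without wild type 2 Mfap2 had no upper bound. Differences between these members and the fibulins were not tested.

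Eln (Entrez gene 13717, chromosome 5, 134702595 to 134747368, minus strand) encodes elastin, the rubber-like core of the fibre. Mfap4 (Entrez gene 76293, chromosome 11, 61485431 to 61488708, plus strand) encodes a fibrinogen-related glycoprotein that binds elastin and collagen. Neither was listed in any of the 5 libraries. Over the groups, 0 counts allowed levels of up to 4.51 CPM in the knockout and 7.48 CPM in the wild type. As FPKM, counts per 1000 bases and 1e6 reads, 3 counts of the longest Eln transcript of 3853 bases would come to 2.19 to 2.78 in the knockout and 2.65 to 3.05 in the wild type libraries. For the shorter Mfap4 transcript of 1770 bases they would come to 4.98 to 6.31 and 6.03 to 6.94. With an absent row taken as 0, elastin mRNA was thus not detectable here, at a limit well below the level of Fbn1 in either genotype. Listed genes held 76.6% to 80.1% of the counted reads, and that an absent row means 0 reads was not shown.

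Per length, on the FPKM scale, the order of the members differed between the genotypes. In the knockout libraries Efemp2 had the highest level at 55.3 ± 20.4 FPKM (n = 3), followed by Fbn1 at 32.7 ± 6.29. The libraries of these 2 genes overlapped, because Efemp2 in knockout 3 (32.40) lay below Fbn1 in knockout 2 (39.83). Fbn1 lay above Fbln2 (16.9 ± 3.09) without overlap. Fbln2, Ltbp2 (14.2 ± 3.43), Fbln5 (12.5 ± 2.11) and Mfap2 (7.91 ± 7.94) each overlapped the next, as did Fbln1 (1.98 ± 2.15) and Mfap5 (0.707 ± 1.22) below them. In the wild type libraries Fbn1 came first at 14.2 ± 1.53 FPKM (n = 2), and no neighbours in the order were separate. Efemp2 was at 10.3 ± 4.74, Mfap2 at 10.2 ± 14.5, Ltbp2 at 7.81 ± 1.15, Fbln2 at 4.81 ± 4.26, Fbln1 at 3.13 ± 2.78, Fbln5 at 2.67 ± 0.0636 and Mfap5 at 2.57 ± 3.63. Mfap2 had the highest FPKM of the members in wild type 2 (20.48), on 5 counts, and was at 0 in wild type 1.

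**Figure D2:**
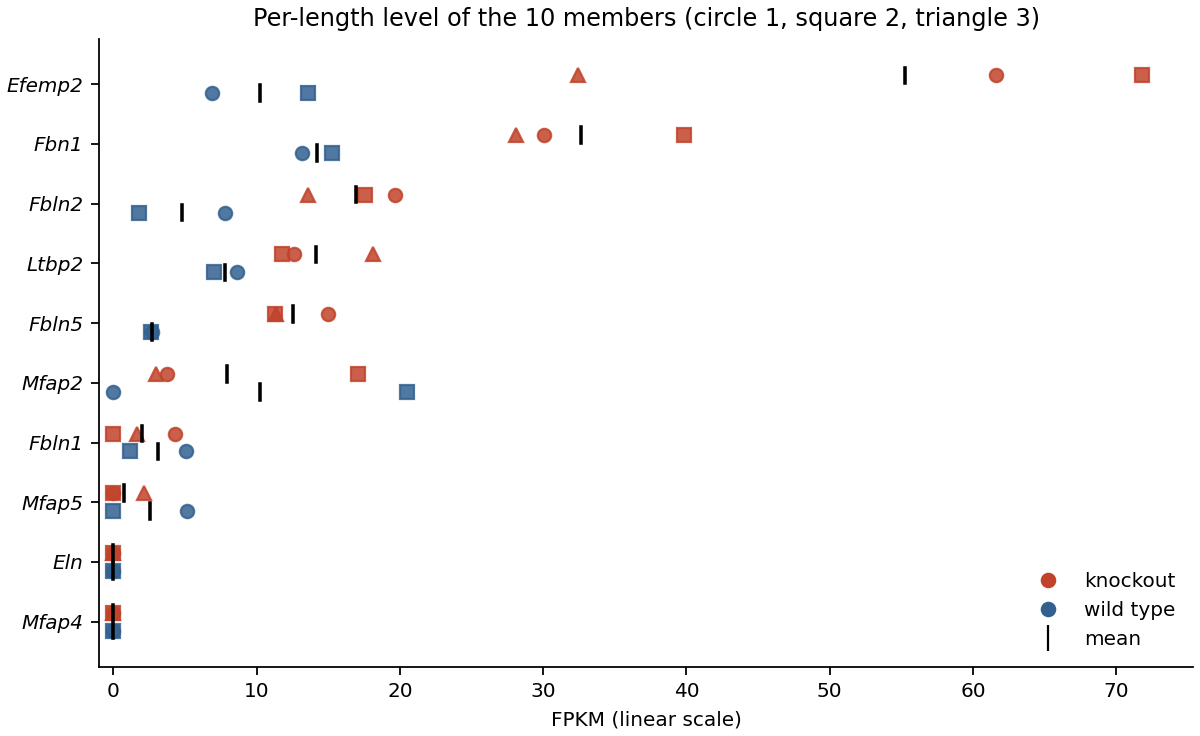
FPKM on a linear axis for the 10 members (rows, ordered by knockout mean) in each knockout (red) and wild type (blue) library, with a vertical tick at each mean. Efemp2 leads the knockout libraries at 32.40 to 71.80 FPKM and lies at 6.91 to 13.61 in the wild type libraries, next to Fbn1 at 13.13 to 15.29, and Eln and Mfap4 sit at 0 throughout.

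Ratios within a library do not depend on how libraries are scaled to each other. The FPKM of Efemp2 per Fbn1 was 2.05, 1.80 and 1.15 in knockout 1 to 3 against 0.526 and 0.890 in wild type 1 and 2. Efemp2 thus had a higher FPKM than Fbn1 in every knockout library and a lower one in both wild type libraries. FPKM uses a gene length estimated in each library. For Efemp2 and Fbn1 these were 1802 and 8799.31 bases in wild type 2, against 1642.54 and 9900 in knockout 3. Their counts were 6 and 35 in wild type 2 and 18 and 101 in knockout 3. The gap between these libraries therefore rested largely on the lengths. Fbln5 per Fbn1 was 0.497, 0.283 and 0.403 against 0.207 and 0.172, again with separate groups. Fbln2 per Fbn1 overlapped, at 0.654, 0.440 and 0.483 against 0.596 and 0.118. Ltbp2 per Fbn1 overlapped as well, at 0.420, 0.296 and 0.645 against 0.657 and 0.458. With 3 against 2 libraries an exact permutation test of such a ratio cannot go below p = 0.2 in a two-sided test, so none was run. Efemp2 made up 41.9%, 42.4% and 29.4% of the members' summed FPKM in knockout 1 to 3, against 14.0% and 22.0% in wild type. The share of Fbn1 was 20.5%, 23.5% and 25.5% against 26.6% and 24.7%. Mfap2 took 33.0% of the sum in wild type 2, on 5 counts, and 0.0% in wild type 1. This lowers the shares of all other members in wild type 2, so neither comparison of shares is firm.

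The calls differed in how far they depended on the processing. Over 15 alternative settings, Fbn1 passed the test in 15, with log2 fold changes from 1.13 to 1.39, and so did Efemp2 (1.89 to 3.03). Fbln5 passed in 14 of 15 (1.87 to 2.43), Fbln2 in 12 (1.12 to 3.20) and Ltbp2 in 6 (0.66 to 1.10). None of the 5 changed direction. The same 3710 genes had a median log2 fold change of 0.01.

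**Figure D3:**
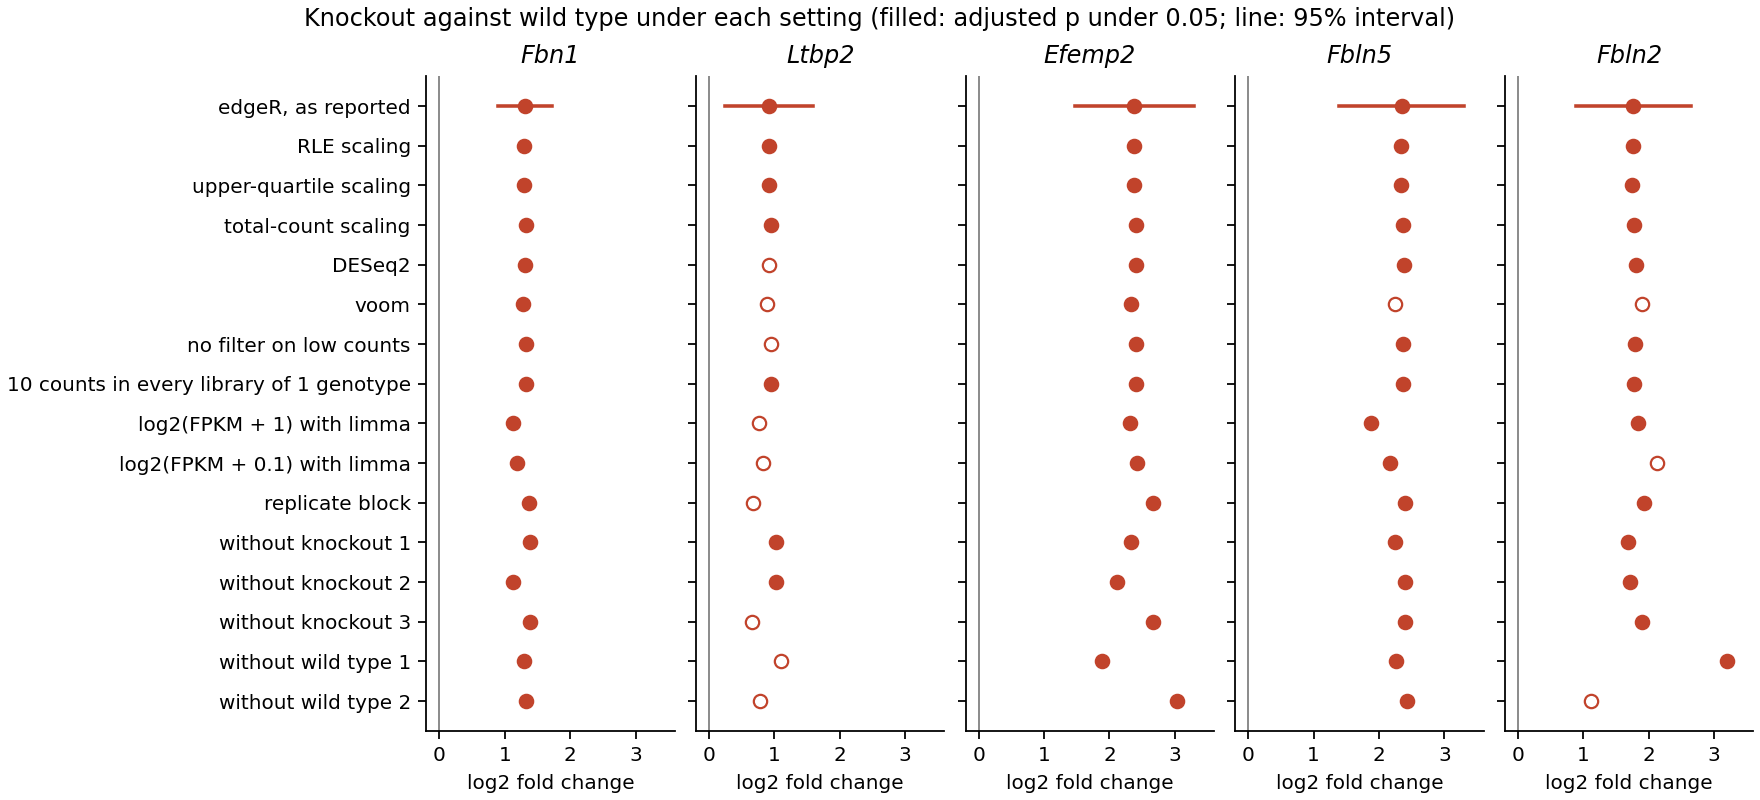
Log2 fold change of knockout against wild type (horizontal axes) for the 5 tested members under the reported edgeR fit, with its 95% interval, and under each of 15 alternatives (rows); filled points passed at an adjusted p under 0.05. Fbn1 (1.13 to 1.39) and Efemp2 (1.89 to 3.03) are filled in every row, and Ltbp2 is filled in the reported fit and 6 alternatives.

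The remaining genes of the fibre were read from lists grouped by role, and their counts are a description with no list test. Among 13 relatives of the members (further fibrillins, fibulins, emilins and LTBPs) 9 were listed and 3 tested, with 0 higher, 1 lower and 2 not past the test. Emilin2, an elastin microfibril interfacer, was the one that fell, from 530 ± 80.8 CPM (n = 2) in the wild type to 261 ± 51.9 CPM (n = 3), or -1.04 on the log2 scale (SE 0.18, adjusted p = 5.52e-07). Its relative Emilin1, which links elastin to the microfibril surface, was at 0.68 (adjusted p = 0.327), and Ltbp3, which carries latent TGF-beta, at 0.59 (adjusted p = 0.484). Ltbp1, another carrier of latent TGF-beta, was too low to test at 12, 5 and 11 counts in knockout 1 to 3 against 5 and 2 in wild type. Fbn2, the fibrillin of development, had 2 counts against 0, and Efemp1, the closest relative of Efemp2, had 11 against 5.

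Of 21 genes of assembly and cross-linking, 20 were listed. Among the 8 tested, 4 rose and 1 fell, and 3 missed the threshold, with a median log2 fold change of 0.54. Lox, the lysyl oxidase that cross-links elastin and collagen, was counted 308, 294 and 373 times in knockout 1 to 3 against 112 and 99 times in wild type. Both wild type libraries were at 526 CPM and the knockout mean was 1460 ± 57.8 CPM, 1.47 higher on the log2 scale (SE 0.14, adjusted p = 1.97e-23). Lox differed by a smaller factor than Efemp2, whose protein carries it to tropoelastin, and than Fbln5. These differences between genes were not tested. Loxl2, a paralog acting mainly on type IV collagen, rose by 1.06 (adjusted p = 1.74e-07). Fkbp10, an endoplasmic reticulum chaperone of tropoelastin and collagen, had 26, 26 and 21 counts against 5 and 3, which is 2.43 higher on the log2 scale (SE 0.48, adjusted p = 1.28e-05), and it too passed the filter only through the knockout. Loxl3, chosen after its value was seen, rose by 0.51 (adjusted p = 0.0146), a call lost in 8 of 15 alternatives. Tgm2, the transglutaminase that cross-links fibrillin and fibronectin and is abundant in macrophages, fell by 1.10 on the log2 scale (adjusted p = 0.00044). Loxl1, the paralog most closely tied to elastin, was at 0.46 (adjusted p = 0.505) and Furin, a protease that cleaves profibrillin, at 0.58 (adjusted p = 0.398).

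Matrix proteins that microfibrils bind made up a list of 12, 10 of them listed. Of 8 tested genes 4 rose and 4 missed the threshold (median 0.95), and none fell. Aebp1, a collagen-binding matrix protein, rose from 257 ± 50.6 to 794 ± 29.3 CPM (log2 fold change 1.64, adjusted p = 6.73e-19). Bgn, the proteoglycan biglycan that binds tropoelastin, rose by 1.26 (adjusted p = 8.94e-14), and Fn1, the fibronectin on which fibrillin assembles, by 0.89 (adjusted p = 8.79e-12). Hspg2, the perlecan of basement membranes, rose by 1.56 (adjusted p = 0.00128), likewise with 1 wild type library under the count minimum. With wild type 1 left out it rose by 0.87, short of the test on 1 remaining wild type library. Thbs1, a matricellular glycoprotein that activates latent TGF-beta, was at 0.01 (adjusted p = 0.98).

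Of 16 receptors 10 were tested, with 1 higher, 2 lower and 7 not past the test (median 0.05). Itga11, the collagen-binding integrin chain of fibroblasts, rose by 1.19 (adjusted p = 0.00663). With wild type 1 left out it rose by 1.10, short of the test on 1 remaining wild type library. Ctsa, the protective protein of the elastin receptor complex and a lysosomal enzyme, fell by 0.47 (adjusted p = 0.000342). Cd36, a scavenger receptor, fell by 0.86 (adjusted p = 0.00807). With wild type 2 left out it fell only by 0.37, short of the test on 1 remaining wild type library. Itgav, the integrin chain that binds the RGD site of fibrillin, was at -0.05 (adjusted p = 0.932), and Itgb1, a fibronectin receptor chain, at 0.37 (adjusted p = 0.0709). Of 15 TGF-beta genes 7 were tested, with 1 higher, 1 lower and 5 not past the test (median -0.02). Ctgf, a target of the pathway, rose by 0.68 (adjusted p = 0.00279). It rose by 0.69 without wild type 1 and 0.67 without wild type 2, each short of the test on 1 remaining wild type library. The receptor gene Tgfbr2 fell by 0.79 (adjusted p = 0.0498), a call lost in 10 of 15 alternatives. Tgfb3, a ligand held on microfibrils by LTBPs, was at 0.60 (adjusted p = 0.505).

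Proteases that degrade elastin had no member higher: of 13, 11 were listed and 8 tested, with 4 lower and 4 not past the test (median -0.59). Ctsl, a cathepsin with elastase activity, fell from 2100 ± 148 to 1050 ± 84.6 CPM (log2 fold change -1.01, adjusted p = 7.19e-16). Ctss, the cathepsin of macrophages and antigen-presenting cells, fell by 0.86 (adjusted p = 2.98e-09) and Ctsb by 0.56 (adjusted p = 4.25e-06). Mmp9, a gelatinase that also cuts elastin, fell by 0.66 (adjusted p = 0.00279). With wild type 2 left out it was at -0.57, short of the test on 1 remaining wild type library. Its stromal relative Mmp2 was at 0.70 (adjusted p = 0.0597). Ctss also belongs to the macrophage list, whose 20 markers had 19 tested, with 8 lower and 0 higher. Of 10 protease inhibitors 6 were tested, with 2 higher and 4 not past the test (median 0.27). Timp3, the matrix-bound metalloproteinase inhibitor, rose from 388 ± 15.5 to 690 ± 69.0 CPM (log2 fold change 0.82, adjusted p = 1.04e-05). Serpine2, an inhibitor of serine proteases, rose by 1.07 (adjusted p = 0.000408). With wild type 1 left out it rose by 0.70, short of the test on 1 remaining wild type library. Several named genes have exons opposite another gene, with the same limit on strand as for Fbn1: Loxl2 (301 bases), Loxl3 (535), Fkbp10 (193), Tgm2 (1003), Fn1 (292), Thbs1 (208), Ctsa (819), Ctsb (774), Ctsl (1742) and Timp3 (1733). Pltp, which lies opposite Ctsa, fell itself, by 1.46 on the log2 scale (adjusted p = 0.000307).

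**Figure D4:**
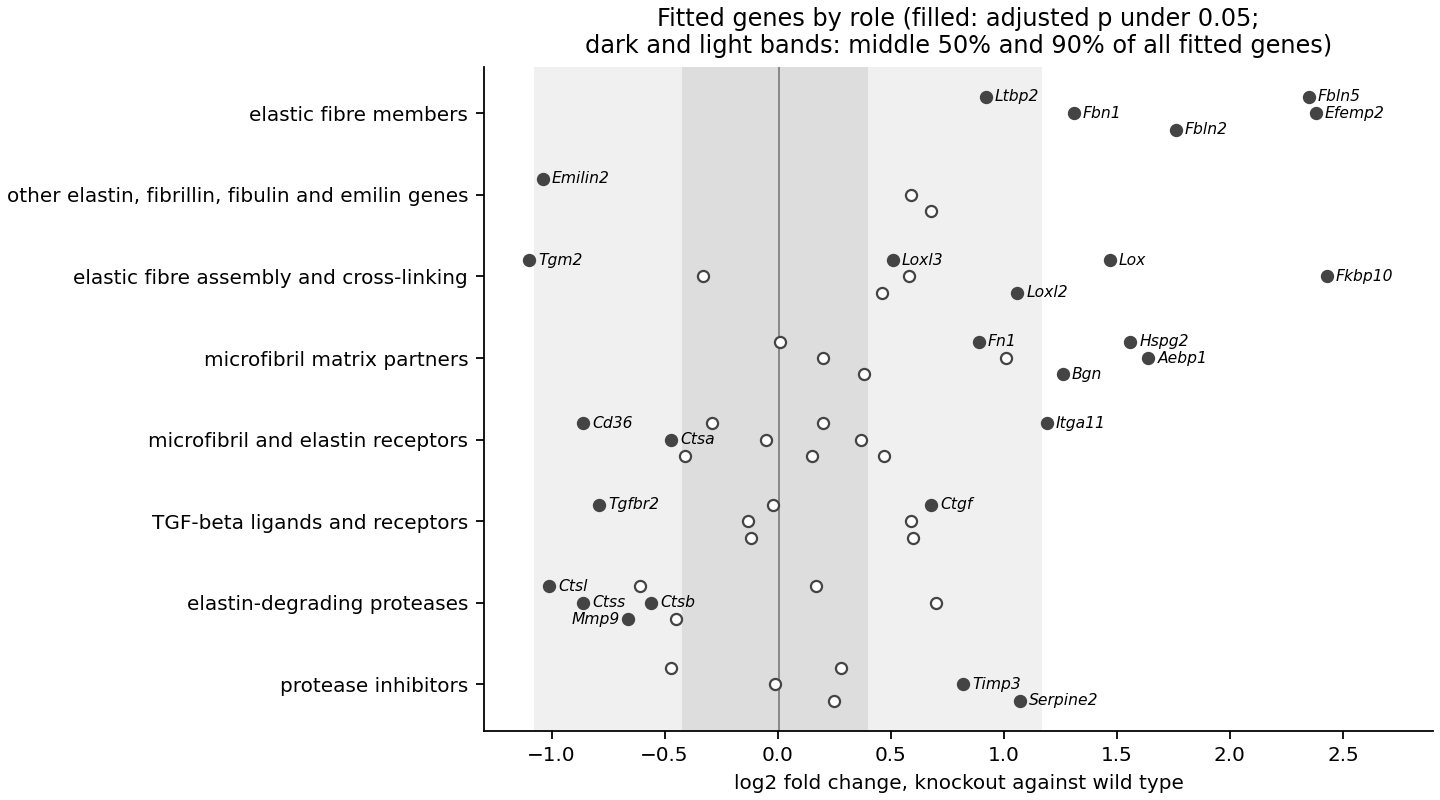
Log2 fold change of knockout against wild type (horizontal axis) for every tested gene of the members and of the 7 role lists (rows); filled and named points passed at an adjusted p under 0.05, and the dark and light bands hold the middle 50% and 90% of all 3710 tested genes. The 5 tested members lie between 0.92 and 2.38, and the called proteases between -1.01 and -0.56.

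The level of the members was set beside the markers of the cells the cultures could hold. Summed, the members were at 903.2, 1074 and 857.8 CPM in the knockout and 375.8 and 345.5 CPM in the wild type libraries, a ratio of 2.62. Without Fbn1, which made up about as much as the rest together, the sum was 485.8 ± 31.8 against 176.0 ± 23.5 CPM, a ratio of 2.76. The 18 stromal markers summed to 10770 to 11380 CPM against 4313 to 4332, a ratio of 2.54, close to that of the members. Of these 18, 11 were tested and 4 rose: Col1a1, Col1a2 and Col3a1, which encode the chains of fibrillar collagens, and Cxcl12, the chemokine of marrow stroma. The other 7 did not pass. The stromal receptor genes Pdgfra and Pdgfrb were at -0.34 (adjusted p = 0.593) and 0.15 (adjusted p = 0.872), and the stromal transcription factor Prrx1 at 0.39 (adjusted p = 0.383). Ly6a was at -0.22 (adjusted p = 0.754). Dcn was at 1.01 (adjusted p = 0.0783), Vcam1 at 0.82 (adjusted p = 0.192) and Fap at 0.81 (adjusted p = 0.284), and these passed the filter only through the knockout. The median log2 fold change of the 11 tested markers was 0.82. Without the 3 collagens the stromal ratio was 1.65, and without these and Cxcl12 it was 1.22, at 692.8 ± 68.4 against 568.8 ± 166 CPM with overlapping libraries. This split was chosen after the values were seen.

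The 12 contractile markers of smooth muscle and myofibroblasts summed to 2957 to 3406 CPM in the knockout and 1076 to 1159 CPM in the wild type libraries, a ratio of 2.80, with 9 of 10 tested genes higher. Of these 9, Cnn1, Myl9, Actg2 and Lmod1 had fewer than 2 wild type libraries at the count minimum and so passed the filter through the knockout. Acta2, the smooth muscle actin, was at 1100 against 262 CPM (log2 fold change 2.06, adjusted p = 9.2e-33). Sums of blood lineage markers were lower in the knockout, with ratios of 0.647 for 20 listed macrophage, 0.466 for 4 osteoclast, 0.446 for 3 neutrophil and 0.453 for 6 lymphocyte markers. Lyz2, the lysozyme of macrophages, was at 6790 against 10800 CPM, and Acp5, the acid phosphatase of osteoclasts, fell by 1.35 on the log2 scale (adjusted p = 7.89e-05). For other mesenchymal fates the ratios were 1.55 for 7 listed osteoblast, 0.963 for 3 chondrocyte and 1.27 for 5 adipocyte markers. Of 3 tested osteoblast markers 2 rose: Sparc, a matrix glycoprotein of bone, by 1.50 on the log2 scale (adjusted p = 2.39e-31), and Alpl, the alkaline phosphatase of osteoblasts, by 3.29 (adjusted p = 7.46e-06). Alpl had 52 counts in the knockout against 3 and passed the filter only through the knockout. Spp1, the osteopontin gene that holds much of the osteoblast sum and is also made by macrophages, was at -0.02 (adjusted p = 0.918). Sox9, Acan, Bglap and Plin1, markers of cartilage, mature bone and fat cells, were at 0 in every library, whereas Ibsp and Sp7 of osteoblasts had 10 counts each against 1 and 2, Col2a1 of cartilage 28 against 11 and Cebpa of adipocytes 34 against 11. Endothelial markers, whose cells also make elastic fibre proteins, had a ratio of 0.909. The part of these cell type differences in the members' difference was not tested.

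**Figure D5:**
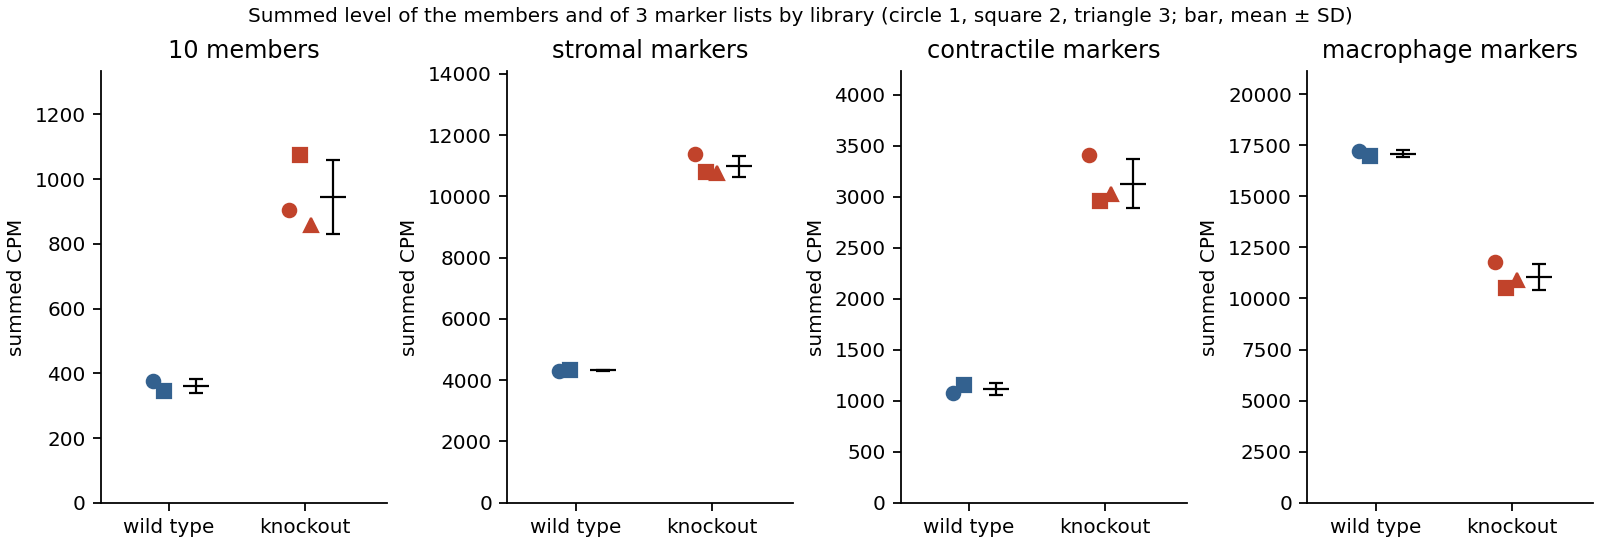
Summed CPM (linear axes from 0, scaled separately) of the 10 members and of the stromal, contractile and macrophage marker lists in each wild type (blue) and knockout (red) library, with mean ± SD. The first 3 sums are higher in every knockout library (ratios 2.62, 2.54 and 2.80) and the macrophage sum is lower (0.647).

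Tested genes outside all lists were ranked by how near their centred log2 CPM profile over the 5 libraries lay to the median profile of the 5 tested members. The nearest were Col5a1 (Euclidean distance 0.324), Rcn3 (0.344), Peg3os (0.354), Mark1 (0.366) and Thbs2 (0.421). Col5a1, a chain of the collagen that starts fibrils, was at 666 ± 44.2 against 244 ± 6.95 CPM, and Thbs2, a matricellular thrombospondin, at 957 ± 119 against 347 ± 19.7 CPM. Rcn3, a calcium-binding protein of the secretory pathway, was at 150.0 ± 21.4 against 52.7 ± 8.12 CPM. Mark1, a kinase, did not pass the test (log2 fold change 1.65, adjusted p = 0.119). The likeness is over 5 libraries in 2 groups and includes the difference between the genotypes.

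Promoter windows of 250 bases before the start were in the RefSeq table (GRCm38.p6) for 7 of the members, 12 windows in all. They were searched because BMAL1 with CLOCK binds the E-box CACGTG, and Efemp2 and Fbln5 are printed as the members with the highest count ratios between the genotypes. CACGTG, a palindrome that reads the same on both strands, was in 2 of the 12 windows against 6.02% of all 32851 windows of this length. Both are overlapping windows of Fbln1, a member with no detectable difference, and hold the same box, 81 bases before the start of the one printed. The windows of Fbn1, Fbln2, Fbln5, Efemp2, Mfap2 and Ltbp2 hold no CACGTG, and none of the 12 holds the variant CACGTT (3.85% of all). The Fbn1 window lies inside the longer Fbn1 gene model of GENCODE M21, so by that annotation it is not upstream of the gene. By the RefSeq gene positions, the Fbln2 window lies inside its gene. So do the windows that begin at 141010431 (Mfap2), 101818485 (Fbln5) and 5474440 and 5474485 (Efemp2). The windows of Fbn1 and Ltbp2 and the Fbln1 window that begins at 85205758 run partly into their genes. Some windows of a gene also overlap each other, so the 12 are not independent. The GC box GGGCGG, on either strand, was in 9 of the 12 windows, against 32.7% of all windows. Each of the 7 genes had it in at least 1 window, for which no share over all genes was computed. The boxes of Fbln1, Fbln2 and Mfap2 lie inside their genes by the RefSeq positions. TATAAA (12.4% of all), the AP-1 letters TGANTCA (6.75%) and the ROR letters TAGGTCA (2.23%) were in none, and CATTCC, a TEAD motif (12.6%), was in 1 window, of Mfap2. All motifs were searched on both strands. CACGTG and CACGTT share their first 5 letters, so no hexamer counts as both, and a match is not evidence of binding. The printed sequences read 5′ to 3′ on the strand of the gene. Capitals mark the GC boxes (GGGCGG or its reverse complement CCGCCC) in Fbln5 at chr12:101819120-101819369 (minus strand, 65.2% GC) and Efemp2 at chr19:5473696-5473945 (plus strand, 59.2% GC). They mark the E-box in Fbln1 at chr15:85205699-85205948 (plus strand, 46.4% GC).
Fbln5: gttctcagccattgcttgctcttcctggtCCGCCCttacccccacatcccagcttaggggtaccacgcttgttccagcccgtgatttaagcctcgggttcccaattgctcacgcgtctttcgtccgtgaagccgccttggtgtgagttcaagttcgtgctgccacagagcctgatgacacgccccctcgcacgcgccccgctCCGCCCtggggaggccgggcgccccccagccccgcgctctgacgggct
Efemp2: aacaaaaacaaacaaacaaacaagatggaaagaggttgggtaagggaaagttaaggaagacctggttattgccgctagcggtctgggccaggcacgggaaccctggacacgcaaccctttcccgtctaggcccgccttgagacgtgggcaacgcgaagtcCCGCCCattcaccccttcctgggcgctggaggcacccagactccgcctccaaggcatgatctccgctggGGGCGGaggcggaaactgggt
Fbln1: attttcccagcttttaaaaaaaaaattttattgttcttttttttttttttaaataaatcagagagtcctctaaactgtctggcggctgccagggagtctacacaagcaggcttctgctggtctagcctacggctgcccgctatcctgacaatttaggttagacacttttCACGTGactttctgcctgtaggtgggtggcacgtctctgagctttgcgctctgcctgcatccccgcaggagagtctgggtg
The median GC content over the first window of all genes was 52.0%.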

How the data were processed

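Total RNA of cultured cells was sequenced as 5 libraries prepared by Illumina protocols, per the labels' protocols. For each library the authors deposited 1 table whose columns, per the file headers, are the gene's length in bases, its expected count and its FPKM. Per the submitters' processing notes, HISAT2, StringTie, Bowtie2 and RSEM were used with the build mm10; versions and roles are not given in the sources used here. A gene absent from a table was taken as 0, and the deposited expected counts (93.8% to 94.2% whole within 0.005) were rounded. From the FPKM values, 76.6% to 80.1% of the counted reads lie in listed genes.

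The fit ran over all genes in edgeR 4.0.16 (R 4.3.3): genes were kept by filterByExpr at its defaults (count 10, total 15), scaled by TMM and fitted by robust quasi-likelihood on genotype alone, with Benjamini-Hochberg adjustment at 0.05. It was also run on simulated counts with the same spread beyond counting error for all genes. That run cannot vouch for its error rate in these data. Members too low to fit were compared by exact two-sided Poisson tests with the scaled totals as exposure. Intervals (95%) and the 3-count limit cover counting error only. Alternatives used DESeq2 1.42.0, limma 3.58.1 (voom, and log2(FPKM + 1) or log2(FPKM + 0.1)), other scalings and filters, a replicate block and each library left out with the tested genes kept.

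Positions and promoters come from RefSeq (GRCm38.p6), and exon overlaps between strands and transcript lengths from GENCODE M21. Members, lists and tests were chosen with earlier results of these data known. Named were all members, up to 4 genes per role list by smallest p, the 2 highest genes of each marker list by FPKM where given, and the 5 genes of nearest profile; further list members are given as examples.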

Additional observations from a re-analysis of the deposited data

How the results depend on the processing

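Of 75 alternative fits of the 5 tested members, 62 kept the call and 13 lost it, and none changed direction. Members higher numbered 5 as reported, 2 with voom, 3 with log2(FPKM + 0.1) in limma, and 3 to 5 with each library left out. Members lower stayed at 0 in every setting run. Over all genes, 304 higher and 302 lower became 149 and 131 with DESeq2, 177 and 174 with log2(FPKM + 1) and 159 and 161 with log2(FPKM + 0.1). With each library left out they ranged from 164 to 310 higher and 158 to 285 lower; the counts were 164 and 158 without wild type 1 and 180 and 170 without wild type 2. The causes were not tested. Among members too low to fit, the exact ratio of Fbln1 was 1.70 without wild type 1 (0.292 to 1.70 over the libraries left out), and that of Mfap2 was 1.05 without knockout 1 and 1.15 without knockout 3 (0.352 to 1.15). Leaving out wild type 2 gave no Mfap2 ratio, since no wild type count remained, and no such ratio was possible for Mfap5 without wild type 1.

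The deviations of same-numbered libraries from their group means correlated at -0.00758 and 0.0262. These values cannot decide whether replicate numbers pair the libraries. In each gene the wild type libraries deviate by equal and opposite amounts, and counting error at this depth lowers such correlations. With the replicate number as a block, 228 genes were higher and 212 lower, and of the members 4 stayed past the test while Ltbp2 (log2 fold change 0.67, adjusted p = 0.306) did not. Total-count scaling was added after seeing the data. No scaling moved the median of all tested genes by more than 0.1. Depth limits the members most: the wild type levels of Efemp2, Fbln5 and Fbln2 rest on 9, 8 and 12 counts.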
